A study of Mus musculus with 28 samples.

Results

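The genes described here are 37 interferon-stimulated genes, a set of type I interferon targets named by symbol, measured by bulk RNA-seq in mouse hippocampus. All 37 were found among the 24062 genes of the count table, and all 37 were among the 16369 genes that passed the filter on low counts. Oas3 was the only member with a mean under 10 counts per library (5.9). Type I interferons are secreted antiviral cytokines. They signal through a receptor pair (Ifnar1 and Ifnar2) and the kinases Jak1 and Tyk2 to a complex that holds Stat2 and Irf9 and binds a DNA element called ISRE in front of its target genes. The products of these genes sense foreign nucleic acid, block translation or viral replication, and feed back on the pathway. In the brain, microglia are a main source of such responses, and interferon-responsive microglia are known from amyloid models.

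The 28 libraries came from hippocampi of female mice in 7 groups of 4. The 3xTg line is a model of Alzheimer's disease with human amyloid precursor protein and tau transgenes, driven in neurons by a Thy1 cassette. WT libraries carry the genotype label BL6/129. WT mice were treated with vehicle (Veh), NAVI (ABT263 or navitoclax, which blocks survival proteins of the BCL-2 family) or DQ (dasatinib, a kinase inhibitor, with the flavonoid quercetin), both used to kill senescent cells. The 3xTg mice had NAVI, DQ or a vehicle labelled VehN or VehD. Age, dose and schedule are unknown here. The labels do not say whether WT and 3xTg mice were littermates, so the transgenes and any other difference between the lines cannot be told apart.

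Libraries held 32080861 to 54019519 counts. App and Thy1 were higher in every 3xTg library than in every WT library, over all treatments by a log2 difference of 1.07 and 1.68. Mapt, the tau gene, overlapped, at 527 to 649 CPM in WT and 615 to 755 in 3xTg. It rose by 0.24 over all treatments (edgeR adjusted p = 5.01e-06) and missed the threshold with vehicle (0.13, edgeR adjusted p = 0.0714). All 4 markers of hippocampal neurons were present well above the filter. Tissue at the edge of the dissection varied. The summed level of 8 choroid plexus markers ran from 70.8 to 5833 CPM (counts scaled to a common library size), and 8 libraries had a thalamus marker score over 0.25: 1 of WT Veh, 2 each of WT DQ, VehN and VehD, and 1 of 3xTg NAVI. Where a genotype call changes without those 8 libraries, the value without them is given too. No label states that each replicate is its own animal, so p-values measure the spread between these samples. Whether counting used the strand is unknown, so overlapping genes are uncertain, as are members with close copies (Ifit1, Ifit3, Oas1a, Trim30a, Gbp2, Gbp3, Slfn2 and Ifi27). In bulk tissue, fewer cells of a type and less RNA per cell cannot be told apart.

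Promoter sequences are given because the ISRE is the element through which the pathway is known to act on these genes. Of the 37 members, 29 were matched by symbol in the RefSeq promoter table (build GRCm38.p6, 250 bases before to 50 after the start). Zbp1, Parp14, Dhx58, Usp18, Oas2, Ifi27, Mx1 and Rtp4 were not matched. The ISRE core was searched as GAAANNGAAA on both strands, counting overlapping matches. It lay in 16 of 29 matched members (55.2%), against 3.99% of 27025 genes in the table. The element of interferon gamma signalling, GAS (TTCNNNGAA), which reads the same on both strands and may overlap an ISRE core, lay in 6 of 29 (20.7%), against 9.55% of genes. Over all treatments 12 of the 16 members with an ISRE core and 4 of the 13 without were called higher in 3xTg. The share over all tested genes was 7.37%. Median log2 differences were 0.57 with a core and 0.15 without. Usp18, Mx1, Rtp4, Parp14 and Ifi27, which were not matched, were called higher too. The share that rose among all genes with a core was not examined. These counts are descriptions of letters in a window, and no match says nothing of binding. The 150 bases before the start are given 5′ to 3′ on the gene's strand, with ISRE cores that lie fully inside in capitals. They are given for 6 members that rose over all treatments and for Xaf1, which fell and has no match in the window. All 6 hold a core in that stretch. Not shown are the 4 that rose with no core in the window (Herc6, Irf9, Lgals3bp and Oasl2). Eif2ak2, Stat2, Ddx58 and Ifih1, which rose with a core only outside the stretch, are not shown either. Gbp2 and Gbp3, which rose with a core inside the stretch, are also left out. The sequences printed therefore do not show how matches go with direction.
Isg15 (chr4:156200819-156200968, minus strand): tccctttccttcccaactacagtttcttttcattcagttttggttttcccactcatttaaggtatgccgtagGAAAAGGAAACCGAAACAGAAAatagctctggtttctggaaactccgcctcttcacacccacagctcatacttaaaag
Ifit1 (chr19:34640739-34640888, plus strand): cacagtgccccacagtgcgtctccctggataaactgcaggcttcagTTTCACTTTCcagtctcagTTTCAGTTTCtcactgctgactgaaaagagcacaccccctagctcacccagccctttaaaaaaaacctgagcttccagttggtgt
Ifit3 (chr19:34583379-34583528, plus strand): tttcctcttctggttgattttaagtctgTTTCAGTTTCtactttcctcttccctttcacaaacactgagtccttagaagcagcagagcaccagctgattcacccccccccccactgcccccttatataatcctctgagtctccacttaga
Ddx60 (chr8:61927937-61928086, plus strand): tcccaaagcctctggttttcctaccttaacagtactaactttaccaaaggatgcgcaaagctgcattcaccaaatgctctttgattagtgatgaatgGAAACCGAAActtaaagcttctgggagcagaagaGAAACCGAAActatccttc
Oas1a (chr5:120907526-120907675, minus strand): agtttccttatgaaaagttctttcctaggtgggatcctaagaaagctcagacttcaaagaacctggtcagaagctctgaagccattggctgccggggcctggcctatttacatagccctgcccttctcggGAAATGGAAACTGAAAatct
Rsad2 (chr12:26456453-26456602, minus strand): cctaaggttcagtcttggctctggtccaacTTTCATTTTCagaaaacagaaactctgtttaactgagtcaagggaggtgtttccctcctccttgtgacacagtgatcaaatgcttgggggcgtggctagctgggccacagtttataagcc
Xaf1 (chr11:72301479-72301628, plus strand): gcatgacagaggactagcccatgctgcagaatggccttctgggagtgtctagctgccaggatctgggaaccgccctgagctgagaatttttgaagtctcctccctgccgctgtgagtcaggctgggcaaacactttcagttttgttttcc
Isg15 holds 3 overlapping cores in tandem, and Ifit1 and Ddx60 hold 2 separate cores each. Ifit3 has a further core that starts upstream of the stretch shown and ends in its first bases, which are left in lower case.

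The first question was how these genes differed between 3xTg and WT mice with vehicle. Most of them lay higher in 3xTg: 14 of 37 rose and Xaf1 alone fell (edgeR quasi-likelihood test, adjusted p under 0.05 over all tested genes), where 5.68% of all genes rose and 7.4% fell. The estimate was positive for 35 of 37 members, with a median log2 difference of 0.52, against 0.01 over all tested genes. In 14 members every one of the 8 3xTg vehicle libraries lay above every one of the 4 WT vehicle libraries (2.9% of all genes), and in Xaf1 every one lay below (2.81% of all genes). The mean log2 CPM over the 37 genes was 2.07 ± 0.12 in WT with vehicle (SD, n = 4), 2.61 ± 0.25 in VehN and 2.66 ± 0.24 in VehD, while the mean over all tested genes was 3.70, 3.72 and 3.68. Without the 8 high-thalamus libraries 16 members rose and Xaf1 fell, among 5033 genes called in place of 2142. Ddx58 (adjusted p = 0.0732) and Ifih1 (0.0962) then missed the threshold, while Stat2 (log2 0.29, adjusted p = 0.0216), Gbp2 (0.93, 0.0158), Gbp3 (0.78, 0.0448) and Rsad2 (0.94, 0.0439) passed. Of the 15 calls, 9 held in all 26 alternatives that gave a value: Usp18, Irf9, Ddx60, Oasl2, Eif2ak2, Ifit1, Ifit3, Mx1 and Xaf1.

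**Figure D1:**
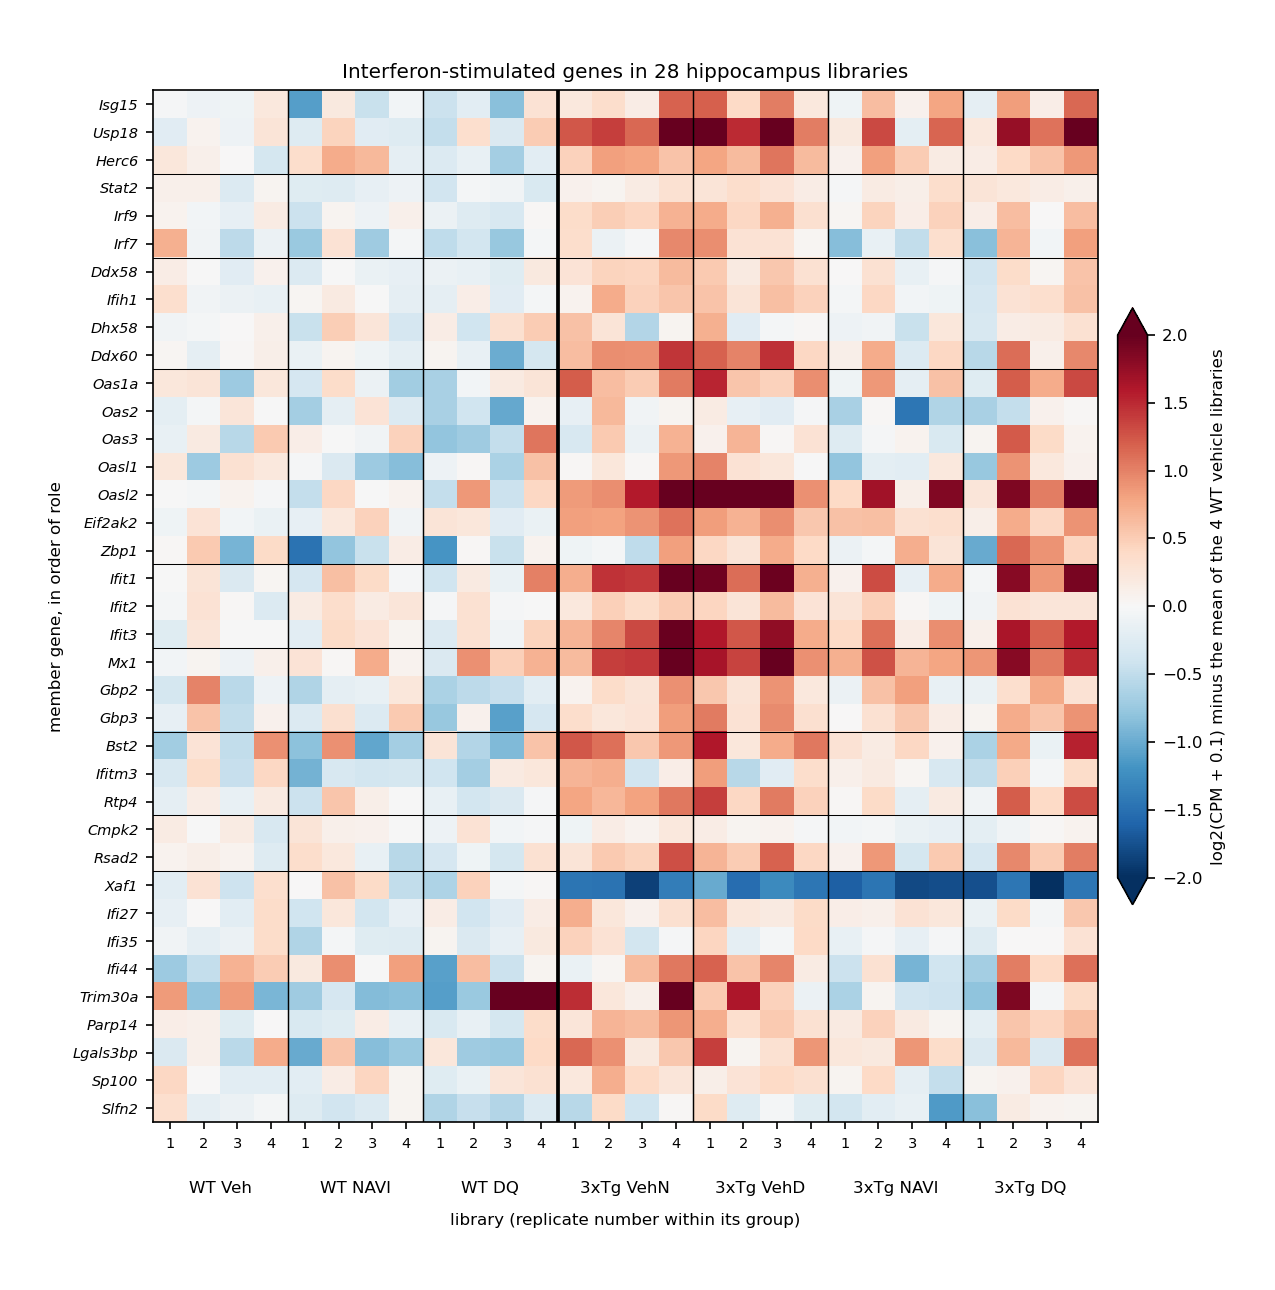
Level of each member (rows, in order of role) in each library (columns, grouped by genotype and treatment), as log2(CPM + 0.1) minus the mean of the 4 WT vehicle libraries; blue is lower and red is higher, with the scale ending at 2 in each direction. Most rows are red in VehN and VehD, the Xaf1 row is blue in all 16 3xTg libraries, and 3xTg DQ replicate 1 is paler or bluer than the other DQ libraries of that genotype.

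With the WT and 3xTg libraries of the 3 treatments combined, 21 of 37 members rose and Xaf1 fell, where 7.37% of all genes rose and 7.06% fell. The median log2 difference was 0.46, against 0.00 over all genes. The members that rose were Usp18, Isg15, Herc6, Stat2, Irf9, Ddx58, Ifih1, Ddx60, Oas1a, Oasl2, Eif2ak2, Ifit1, Ifit3, Mx1, Gbp2, Gbp3, Rtp4, Rsad2, Ifi27, Parp14 and Lgals3bp. Without the high-thalamus libraries 19 rose, and Ifih1 (adjusted p = 0.134) and Lgals3bp (0.0583) did not pass. Of the 22 calls, 13 held in all 40 alternatives: Usp18, Isg15, Stat2, Irf9, Ddx60, Oasl2, Eif2ak2, Ifit1, Ifit3, Mx1, Rtp4, Parp14 and Xaf1. The 16 3xTg libraries and the 12 WT libraries overlapped in every member that rose: 0 of 37 lay fully above (0.36% of all genes), and Xaf1 alone lay fully below (0.232% of all genes).

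Usp18 led the ISG15 system, in which the ubiquitin-like protein Isg15 is attached to other proteins by the ligase Herc6 and removed by the protease Usp18, itself a brake on the interferon receptor. Usp18 was at 1.64, 2.04, 1.79 and 2.32 CPM in the WT vehicle libraries, 4.73, 5.22, 4.42 and 9.35 in VehN and 8.77, 5.599, 8.396 and 4.01 in VehD. The lowest 3xTg vehicle library thus lay above the highest WT one, and Usp18 rose 3.24-fold (log2 1.69, SE 0.34, edgeR adjusted p = 0.00255). Herc6 was at 8.13 ± 1.36 CPM in WT and 12.9 ± 1.496 and 13.99 ± 2.097 in VehN and VehD (SD, n = 4), and rose by a log2 of 0.72 (edgeR adjusted p = 0.00815). Its call was lost with the microglia score as a covariate. Isg15 was at 2.13 ± 0.229 CPM in WT against 3.12 ± 1.23 and 3.67 ± 1.21. VehN replicate 4 and VehD replicates 1 and 3 were the high libraries, 3 of the other 5 lay within the WT range, and the difference of 0.67 missed the threshold with vehicle alone (edgeR adjusted p = 0.115). Over all treatments Isg15 rose by 0.74 (SE 0.18, edgeR adjusted p = 0.00636).

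Among the transcription factors of the pathway, Irf9, the DNA-binding subunit of the ISRE complex, rose with vehicle and Stat2, its partner, rose over all treatments. Irf9 was at 11.3, 10.4, 9.61 and 12.1 CPM in WT with vehicle, 14, 15.2, 14.6 and 17.6 in VehN and 18.1, 14.4, 17.8 and 13.6 in VehD. No 3xTg value fell into the WT range, and the log2 difference was 0.53 (SE 0.13, edgeR adjusted p = 0.0101). Irf9 shares 2.3% of its exon bases with Rnf31 on the same strand, so a part of its counts could belong there. Stat2 differed by 0.20 with vehicle (edgeR adjusted p = 0.0798) and by 0.31 over all treatments (SE 0.05, edgeR adjusted p = 8.83e-05). Irf7, the factor that amplifies interferon production, was at 2.62 ± 1.04 CPM in WT with vehicle and at 3.21 ± 1.21 and 3.38 ± 0.999 in VehN and VehD, a difference of 0.33 (edgeR adjusted p = 0.4696).

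The RNA sensors Ddx58 (RIG-I) and Ifih1 (MDA5) and the helicase Ddx60 rose, and Dhx58 (LGP2) did not pass. Ddx60 was at 1.59, 1.35, 1.57 and 1.68 CPM in WT with vehicle, 2.41, 3.02, 2.98 and 4.302 in VehN and 3.64, 3.16, 4.41 and 2.08 in VehD. The groups did not overlap, and Ddx60 rose 2.098-fold (log2 1.07, SE 0.27, edgeR adjusted p = 0.0129). Ddx58 rose by a log2 of 0.42 and Ifih1 by 0.47 (edgeR adjusted p = 0.0389 and 0.0366), and both calls were weak. The Ddx58 call was lost without any of the 4 WT vehicle libraries, VehN replicates 2, 3 or 4, or VehD replicates 1 or 3 (adjusted p up to 0.118). The Ifih1 call was lost without WT vehicle replicates 2, 3 or 4, VehN replicates 2 or 3, or VehD replicate 3 (adjusted p up to 0.127). Dhx58 was at 1.29 ± 0.0716 CPM in WT and 1.43 ± 0.4796 and 1.46 ± 0.483 in VehN and VehD, a difference of 0.16 with an SE of 0.23.

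Of the effectors that nucleic acid switches on, Eif2ak2 and Oasl2 rose with vehicle and Oas1a joined them over all treatments. Eif2ak2 encodes PKR, the kinase that stops translation on double-stranded RNA. It was at 14.3, 18.4, 14.6 and 13.9 CPM in WT with vehicle, 26.9, 26.5, 28.4 and 32.3 in VehN and 27.1, 24.7, 29.1 and 22.04 in VehD, higher in 8 of 8 libraries than in any of the 4, and rose 1.77-fold (log2 0.82, SE 0.14, edgeR adjusted p = 4.68e-04). Oasl2, an OAS-like protein, was at 5.98, 5.85, 6.29 and 5.94 CPM in WT, 10.97, 11.5, 18.2 and 41.2 in VehN and 26.4, 28.4, 37.6 and 11.5 in VehD. The WT libraries were nearly equal and the 3xTg libraries spread widely, yet all 8 lay above the 4, and the log2 difference of 1.94 (SE 0.44, edgeR adjusted p = 0.00658) was the highest estimate among the 37 members. Its neighbour Oasl1, 11005 bases away on chromosome 5, was at 0.353 ± 0.128 CPM in WT and 0.449 ± 0.168 and 0.488 ± 0.194 in VehN and VehD, a difference of 0.39 with an SE of 0.37. The oligoadenylate synthetase Oas1a, which arms RNase L, differed by 0.95 with vehicle (edgeR adjusted p = 0.0573) and rose by 0.85 over all treatments (adjusted p = 0.00629). Oas1a has close copies, so its counts are uncertain. Oas2 (log2 0.04, SE 0.24), Oas3 (0.42, SE 0.54) and the Z-RNA sensor Zbp1 (0.24, SE 0.43) did not pass in any comparison of the genotypes.

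All 3 members of the IFIT family, which bind RNA ends of foreign messages, rose with vehicle, but to different extents. Ifit3 was at 8.498, 11.9, 10 and 9.99 CPM in WT with vehicle, 16.1, 19.9, 25.2 and 39.6 in VehN and 30.7, 23.8, 34.4 and 16.9 in VehD. Ifit1 was at 4.41, 5.34, 3.604 and 4.58 CPM in WT, 7.41, 12.3, 12.03 and 19.6 in VehN and 17.3, 9.74, 17.6 and 7.37 in VehD. For neither gene did the genotypes overlap. Ifit3 rose by a log2 of 1.35 (SE 0.27, edgeR adjusted p = 0.00225) and Ifit1 by 1.53 (SE 0.37, adjusted p = 0.00959). Ifit2, which lies 7111 bases from Ifit3 on chromosome 19, rose by 0.39 (edgeR adjusted p = 0.0233), with overlapping libraries. That call was lost without WT vehicle replicates 1 or 4, and over all treatments the Ifit2 difference was 0.15 (edgeR adjusted p = 0.165). Ifit1 and Ifit3 have close copies, and how reads that fit several genes were counted is unknown.

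The antiviral GTPase Mx1 rose 3.58-fold from a low level. It was at 0.273, 0.302, 0.262 and 0.319 CPM in WT with vehicle, 0.505, 0.908, 0.937 and 1.59 in VehN and 1.12, 0.893, 1.75 and 0.629 in VehD (log2 1.84, SE 0.34, edgeR adjusted p = 0.00109). None of the 3xTg values reached down to the WT range. The guanylate-binding proteins Gbp2 and Gbp3, which attack vacuoles of intracellular microbes, differed by 0.34 and 0.52 with vehicle (edgeR adjusted p = 0.351 and 0.119). WT vehicle replicate 2 was the high library of both, at 16.6 CPM for Gbp2 where the other 3 lay between 5.72 and 7.76, and both genes passed without it. Over all treatments Gbp2 rose by 0.55 and Gbp3 by 0.58 (edgeR adjusted p = 0.0197 and 0.00672).

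Of 3 members that act at membranes or on receptors, Rtp4 rose. Rtp4, a receptor transport protein with antiviral activity, was at 2.704, 3.43, 2.75 and 3.504 CPM in WT with vehicle, 5.39, 4.95, 5.45 and 6.47 in VehN and 8.17, 4.14, 6.39 and 4.26 in VehD. The groups did not overlap, and the log2 difference was 0.87 (SE 0.23, edgeR adjusted p = 0.0153), a call lost without WT vehicle replicate 1 (adjusted p = 0.0596). The tetherin gene Bst2, whose product holds budding virus on the cell, was at 4.27 ± 2.298 CPM in WT and 7.58 ± 1.56 and 7.75 ± 3.14 in VehN and VehD, a difference of 0.85 with an SE of 0.41 (edgeR adjusted p = 0.148). Among WT libraries, the 5 with a choroid plexus score above 0 held 4.62 to 7.36 CPM of Bst2 and the other 7 held 1.81 to 2.71. Among 3xTg libraries the ranges overlapped, at 4.703 to 11.9 CPM in 9 libraries with a score above 0 and 2.44 to 6.58 in the other 7. The entry blocker Ifitm3 differed by 0.23 (edgeR adjusted p = 0.551).

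Rsad2 and Cmpk2 are neighbours on chromosome 12, 12751 bases apart, and both act on nucleotides: Rsad2 (viperin) makes a chain terminator and Cmpk2 supplies its substrate. Their values differed in kind. Rsad2 was at 2.57, 2.67, 2.58 and 2.03 CPM in WT with vehicle, 2.96, 3.56, 3.37 and 6.13 in VehN and 3.98, 3.51, 5.67 and 3.3 in VehD. These groups did not overlap, the difference of 0.72 just missed the threshold (edgeR adjusted p = 0.0638), and over all treatments Rsad2 rose by 0.61 (SE 0.16, adjusted p = 0.01102). Cmpk2 was at 30.2, 26.7, 30.2 and 21.7 CPM in WT, 25.5, 29.95, 28.4 and 31.3 in VehN and 29.8, 28.1, 28.4 and 26.5 in VehD, inside one range, with a difference of 0.06 (SE 0.08, edgeR adjusted p = 0.6103).

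Xaf1, an interferon-induced factor that promotes apoptosis by binding XIAP, was the only member that fell. It was at 18.9, 26.7, 16.5 and 27.8 CPM in WT with vehicle, 7.89, 7.78, 5.93 and 8.32 in VehN and 10.8, 7.56, 8.97 and 8.01 in VehD. Across all treatments the 12 WT libraries ran from 14.3 to 32.9 CPM and the 16 3xTg libraries from 5.38 to 10.8, with a gap between them. The log2 difference was -1.47 with vehicle, -1.85 with NAVI and -1.67 with DQ (SE 0.18, 0.22 and 0.22), and -1.66 over all treatments (edgeR adjusted p = 2.95e-10), so Xaf1 was 3.16-fold lower in 3xTg. It was the only member called in the genotype comparison under each of the 3 treatments, and the call held in every alternative run. Among 27 other tested genes within 1 Mb of Xaf1 on chromosome 11, 1 was called higher and 2 lower over all treatments (11.1%, against 14.4% of all tested genes), the closest of them 4930563E22Rik at -0.47. This window was examined after the Xaf1 values were seen.

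The remaining effectors were mixed. Parp14, an ADP-ribosyltransferase, rose by 0.55 with vehicle (SE 0.15, edgeR adjusted p = 0.0209), a call lost without WT vehicle replicates 3 or 4. Ifi27, a mitochondrial membrane protein, rose over all treatments by 0.32 and Lgals3bp, a secreted galectin-3 ligand, by 0.67 (edgeR adjusted p = 0.0223 and 0.0355). The Ifi27 call was lost without 3xTg DQ replicate 4. The Lgals3bp call was lost with the microglia score as a covariate (adjusted p = 0.257), without the high-thalamus libraries (0.0583), and without any of 10 libraries (WT vehicle replicates 1 and 3, WT NAVI replicates 1, 3 and 4, WT DQ replicates 2 and 3, 3xTg NAVI replicate 3, and 3xTg DQ replicates 2 and 4). In WT it was at 26.5 to 41.4 CPM in the 5 libraries with a choroid plexus score above 0 and 12.2 to 20.1 in the other 7. In 3xTg these ranges overlapped, at 28.4 to 64.5 CPM in 9 libraries and 20.2 to 38.6 in 7. The estimates of Ifi35 (log2 0.14), Ifi44 (0.52), the nuclear body protein Sp100 (0.33) and Slfn2 (-0.07) with vehicle did not pass, nor did they over all treatments. Trim30a, a ubiquitin ligase with close copies beside it, varied most within groups of all members (SD 1.06 on the log2 scale, the 98.7th percentile of tested genes). It was at 3.04, 3.94, 33.6 and 33.2 CPM in WT with DQ and 18.7, 7.81, 7.13 and 38.1 in VehN, and no comparison of it passed.

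**Figure D2:**
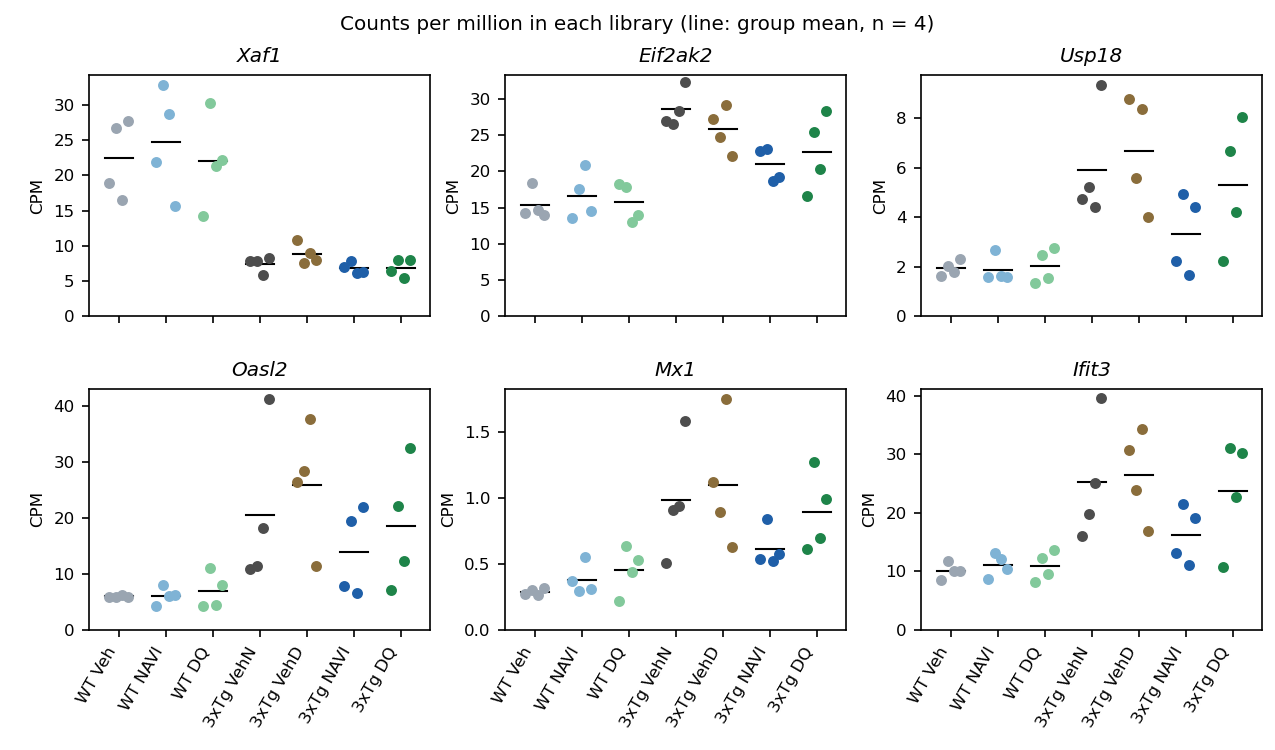
CPM of 6 members in each library by group (points, 4 per group), with the group mean as a line and the axis starting at 0. Xaf1 separates all WT from all 3xTg libraries, while Usp18, Oasl2, Mx1 and Ifit3 are raised and widely spread in VehN and VehD, with lower group means in 3xTg NAVI.

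Per kilobase of exon, the most abundant members in WT with vehicle were Ifi27 (30.2 CPM per kb), Ifitm3 (21.97), Lgals3bp (9.20) and Cmpk2 (6.53), and the least abundant was Oas3 (0.0169). Of these 5, Ifi27 and Lgals3bp rose over all treatments. Oasl2 went from 0.943 to 3.64 CPM per kb with vehicle and Mx1 from 0.0763 to 0.275. Ifit3 was the fifth in WT at 5.78 and reached 14.8 CPM per kb in 3xTg, above Lgals3bp at 14.6. Xaf1 was the seventh in WT at 4.79 and was at 1.74 in 3xTg. Levels per length carry no test.

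The comparison of genotypes was then read within each drug. With DQ, 7 of 37 members rose and Xaf1 fell, where 1.68% of all genes rose and 1.37% fell. The median log2 difference was 0.54 (all genes 0.00), and 33 of 37 estimates were positive. Those that rose were Herc6 (0.84), Stat2 (0.37), Rtp4 (1.05), Gbp3 (1.07), Ifit3 (1.11), Usp18 (1.38) and Irf9 (0.54), with edgeR adjusted p from 0.0146 to 0.0413. Each of these 7 calls was lost in some alternatives. The count was 1 without WT DQ replicate 3, 3xTg DQ replicate 2 or 3xTg DQ replicate 4, 2 without WT DQ replicate 1, 4 without 3xTg DQ replicate 3, and 0 without the high-thalamus libraries, which left 2 WT DQ libraries (median 0.67). Without the high-thalamus libraries the log2 differences were 0.92 for Herc6, 0.23 for Stat2, 1.18 for Rtp4 and 0.996 for Gbp3. For Ifit3, Usp18 and Irf9 they were 1.11, 1.40 and 0.67. The edgeR adjusted p of these 7 ran from 0.114 (Irf9) to 0.336 (Stat2).

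With NAVI, Stat2 alone rose and Xaf1 alone fell, where 3.29% of all genes rose and 2.69% fell. The median log2 difference was 0.34 and 27 of 37 estimates were positive. Stat2 was at 28.4, 28.2, 29.9 and 31.5 CPM in WT NAVI and 33, 37.6, 36.5 and 42.7 in 3xTg NAVI. The groups did not overlap, but with NAVI 1141 of 16369 genes lay fully above and 1244 fully below. Among the members 2 lay above (Stat2 and Ifitm3) and 2 below (Cmpk2 and Xaf1). The Stat2 difference was 0.34 (SE 0.09, edgeR adjusted p = 0.0218). Its call was lost without WT NAVI replicates 2 or 3 or 3xTg NAVI replicates 3 or 4 (adjusted p up to 0.101). Herc6 (-0.01), Rtp4 (0.02), Ifit2 (-0.05) and Ifih1 (0.07), which had passed with vehicle, had estimates near 0 here. Over the 3 treatments, 26 members (70.3%) had a positive estimate in every one, against 14.4% of all genes, and Xaf1 alone was negative in every one.

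**Figure D3:**
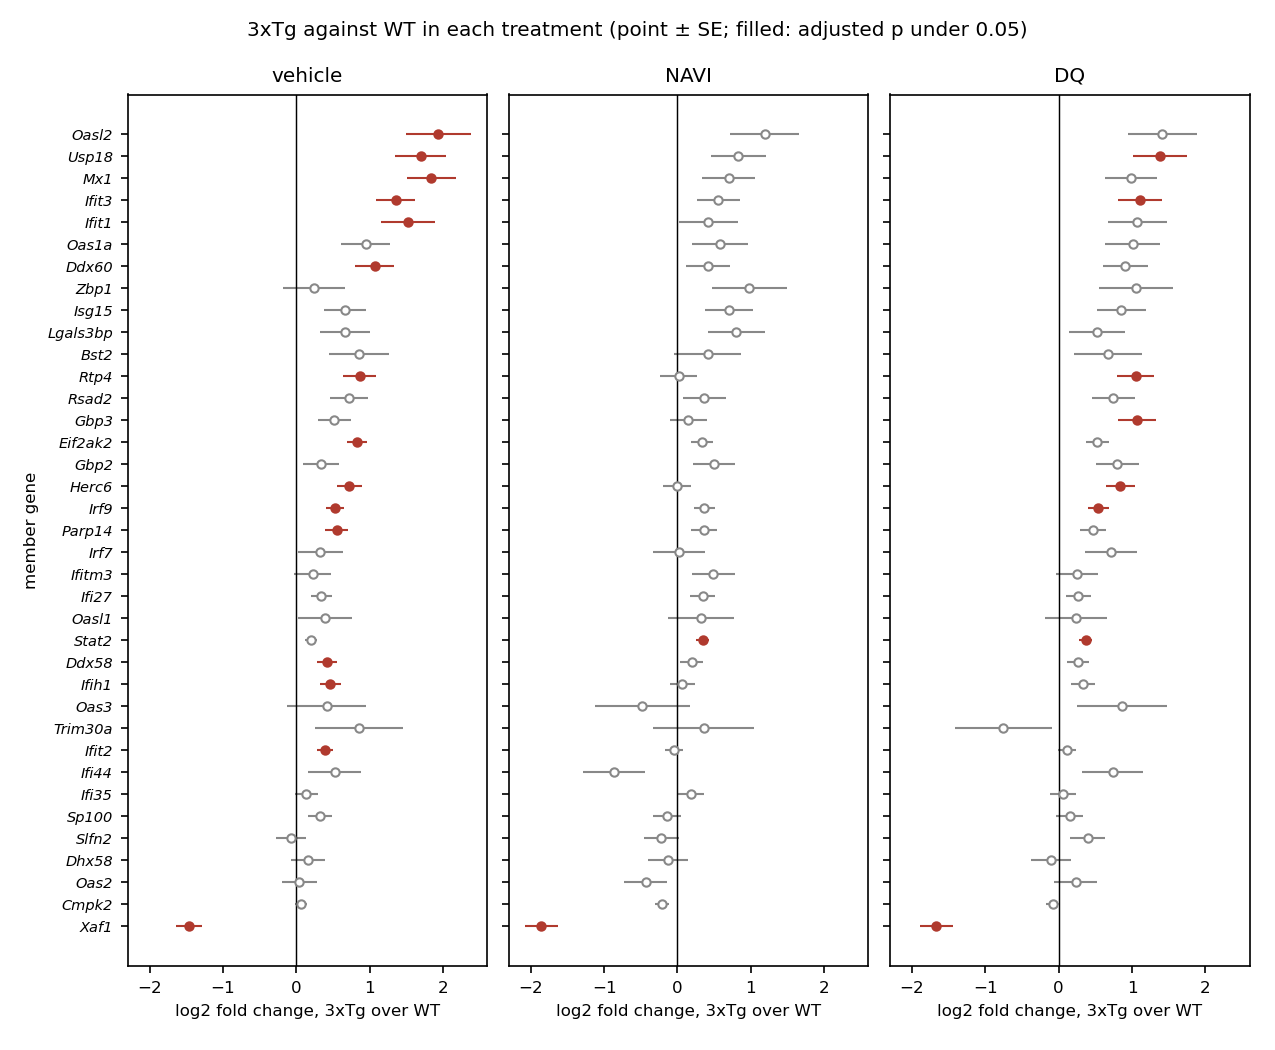
Log2 fold change of 3xTg over WT for each member (rows, ordered by the estimate over all treatments) with vehicle, NAVI and DQ; points are estimates, bars are SE, and filled points passed an adjusted p of 0.05. With vehicle 15 points are filled, with NAVI 2 and with DQ 8, and Xaf1 is filled at the far left of every panel.

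The next question was what each drug did to these genes. NAVI in 3xTg was compared with VehN, and 0 of 37 members passed, as did 0% of all genes with edgeR. An unadjusted p under 0.05 was found in 12 of 37 members, all lower, and in 29.07% of all genes (4759) in either direction. DESeq2 called 2000 genes, Eif2ak2 and Rtp4 among them, both lower, and gave 12 members no adjusted p. Estimates were negative for 35 of 37 members, with a median log2 difference of -0.40, where 47.9% of all genes had positive estimates and the median was -0.01. The 4 members with the smallest p were Eif2ak2 (-0.45, SE 0.15), Rtp4 (-0.73, SE 0.25), Oas2 (-0.78, SE 0.29) and Ddx58 (-0.41, SE 0.15), with edgeR adjusted p of 0.0785, 0.0805, 0.0909 and 0.0937. Eif2ak2 was at 26.9, 26.5, 28.4 and 32.3 CPM in VehN and 22.8, 23.1, 18.7 and 19.2 in 3xTg NAVI. Rtp4 was at 5.39, 4.95, 5.45 and 6.47 in VehN and 3.14, 4.05, 2.69 and 3.51 in 3xTg NAVI. In these 2 genes, Bst2 and Trim30a all 4 NAVI libraries lay below all 4 VehN libraries, 4 of 37 members where 2.6% of all genes did so, and 0 lay fully above (2.83% of all genes).

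The count of calls under NAVI rested on single libraries. Without 3xTg NAVI replicate 2, the library with the highest mean level in its group, 7 members passed as lower (Oas2, Sp100, Ifih1, Ddx58, Rtp4, Ifit1 and Eif2ak2) among 2790 genes. Without VehN replicate 1 it was 3 (Ifih1, Oas2 and Eif2ak2) among 3578 genes, and against both vehicle groups it was Rtp4 alone among 1541. These gene counts are calls in either direction, where the fit reported called 0 of 16369 genes. Calls thus rose over all genes, and the rise is not particular to the members. Other measures moved with NAVI too. All 8 choroid plexus and all 8 thalamus markers had negative estimates (medians -1.03 and -0.96, 0 of 8 passing in each list), the choroid plexus score lay between 1.10 and 2.36 in VehN and between -2.15 and 1.65 in 3xTg NAVI, and no marker of either list had a mean under 10 counts. All 5 tested macrophage and monocyte markers had negative estimates too (median -0.89), with a summed level of 17.8 to 32.1 CPM in VehN and 5.14 to 18.8 in 3xTg NAVI, and all 6 oligodendrocyte markers had positive ones (median 0.29), with 0 passing in either list. The part of these cell types in the members' estimates was not tested. Without the high-thalamus libraries the members' median was -0.39, with 6 of 37 positive and 0 members among 2514 genes called, and with both scores as covariates it was -0.35. The estimates of all genes followed GC content, from a median of -0.18 in the lowest of 4 equal GC classes to 0.26 in the highest. The members' medians in the same classes were -0.45, -0.40, -0.22 and -0.66. Microglia markers were not lower: 8 of 11 had positive estimates (median 0.10), as did 8 of 10 markers of plaque-associated microglia (0.35), with 0 passing.

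In WT, NAVI against vehicle gave a median of -0.09 over the members, with 0 of 37 and 0% of all genes passing with edgeR. An unadjusted p under 0.05 was found in 2 of 37 members and in 7.74% of all genes (1267). DESeq2 called 3 genes, no member. The smallest p belonged to Stat2 (-0.20), Herc6 (0.42), Ifitm3 (-0.53) and Ifit2 (0.22), all at an edgeR adjusted p of 0.614. The difference of the NAVI effect between genotypes was tested directly. It passed in 0 of 37 members where 8.13% of all genes passed with edgeR. An unadjusted p under 0.05 was found in 7 of 37 members, all more negative in 3xTg, and in 32.73% of all genes (5358). DESeq2 called 3004 genes, with Eif2ak2 the only member among them, and gave 8 members no adjusted p. The median over members was -0.33, and the smallest p belonged to Eif2ak2 (-0.56), Herc6 (-0.67), Ifit2 (-0.43) and Rtp4 (-0.83), with edgeR adjusted p of 0.0809, 0.0932, 0.0957 and 0.114. Up to 3 members passed when a library was left out. These were Ifit2, Herc6 and Sp100 without 3xTg NAVI replicate 2 (among 3615 genes called), and Ifit2 and Eif2ak2 without WT vehicle replicate 2 (among 2799). Ifit2 and Eif2ak2 also passed without the high-thalamus libraries, among 4925 genes called. The vehicles of the genotypes carry different labels, so a difference between vehicles cannot be told apart from this one.

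DQ in 3xTg was compared with VehD. No member passed, and 0% of all genes did (edgeR; 0 members and 299 genes had an unadjusted p under 0.05; DESeq2 called 0). Estimates were negative for 35 of 37 members with a median of -0.16, against 0.00 over all genes, and the smallest p belonged to Ifit2 (-0.23, SE 0.13), Ddx60 (-0.53, SE 0.29), Xaf1 (-0.35, SE 0.22) and Herc6 (-0.28, SE 0.19). The DQ libraries disagreed among themselves. The mean log2 CPM of the members was 1.795 in replicate 1 and 2.81, 2.37 and 2.81 in replicates 2, 3 and 4, the widest spread of any group. Replicate 1 was the lowest of its group for 34 of 37 members (91.9%), where it was the lowest for 28.5% of all genes. Without it the members' median for DQ in 3xTg was -0.03 and 17 of 37 estimates were positive. Without the high-thalamus libraries 12 were positive (median -0.12).

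DQ in WT gave a median of -0.09, with 0 of 37 members and 0.00611% of all genes passing with edgeR. An unadjusted p under 0.05 was found in 2 of 37 members and in 3.384% of all genes (554). DESeq2 called 4 genes, no member. The smallest p belonged to Stat2 (-0.20), Slfn2 (-0.51), Gbp2 (-0.59) and Gbp3 (-0.52). The DQ effect differed between genotypes in 0 of 37 members (0% of all genes; 0 members and 467 genes at an unadjusted p under 0.05; DESeq2 called 1 gene, no member), led by Mx1 (-0.93, SE 0.51), Ifit2 (-0.28), Trim30a (-1.28) and Slfn2 (0.43). VehD against VehN gave 0 of 37 members and 0% of all genes (0 members and 807 genes at an unadjusted p under 0.05; DESeq2 called 2 genes, no member), with a median of 0.06 (-0.01 without the high-thalamus libraries) and Stat2 (0.11), Xaf1 (0.24), Trim30a (-0.65) and Eif2ak2 (-0.15) in front.

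**Figure D4:**
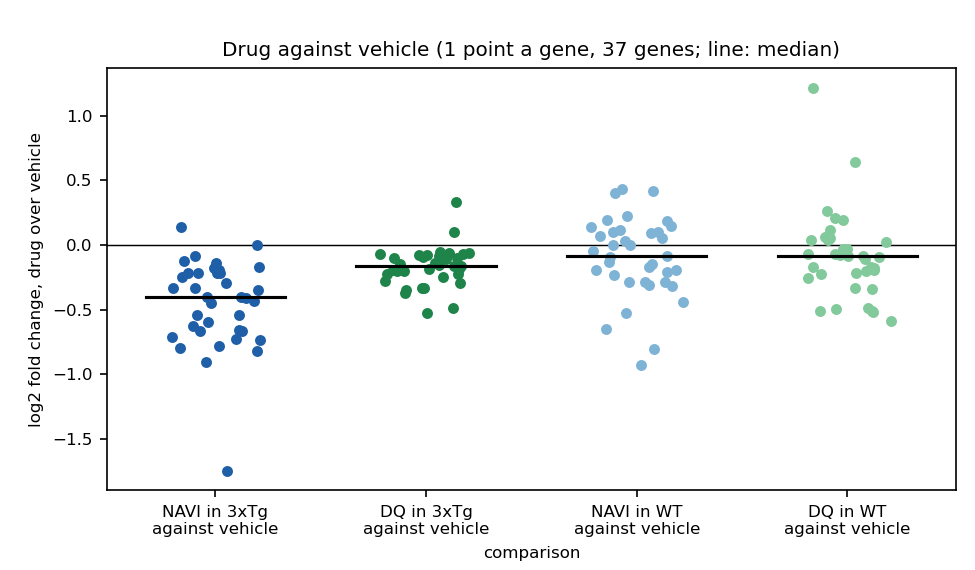
Log2 fold change of each drug over its vehicle in 3xTg and WT mice, with 1 point for each of the 37 members and a line at the median. The medians are -0.40 and -0.16 for NAVI and DQ in 3xTg and -0.09 for each drug in WT, and no point passed the test.

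The mean level of the members placed the groups in the order VehD (2.66 ± 0.24), VehN (2.61 ± 0.25), 3xTg DQ (2.45 ± 0.48), 3xTg NAVI (2.18 ± 0.21), WT vehicle (2.07 ± 0.12), WT NAVI (1.97 ± 0.21) and WT DQ (1.95 ± 0.28), as mean log2 CPM (SD, n = 4). Each neighbour in that order overlapped with the next. The comparisons of genotype with vehicle and of NAVI in 3xTg share the VehN libraries, so their values are not independent of each other. In some groups 1 library was the highest or lowest for most members. VehN replicate 4 was the highest of its group for 25 of 37 members (67.6%, against 17.8% of all genes), WT DQ replicate 4 for 24 (64.9%, against 28.2%) and 3xTg NAVI replicate 2 for 22 (59.5%, against 32.1%). WT NAVI replicate 1 was the lowest for 21 (56.8%, against 27.9%). In WT with vehicle this was less marked. There replicate 4 was the highest for 14 of 37 (37.8%, against 26.9%) and replicate 3 the lowest for 17 (45.9%, against 18.9%). How far members varied together was not tested.

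**Figure D5:**
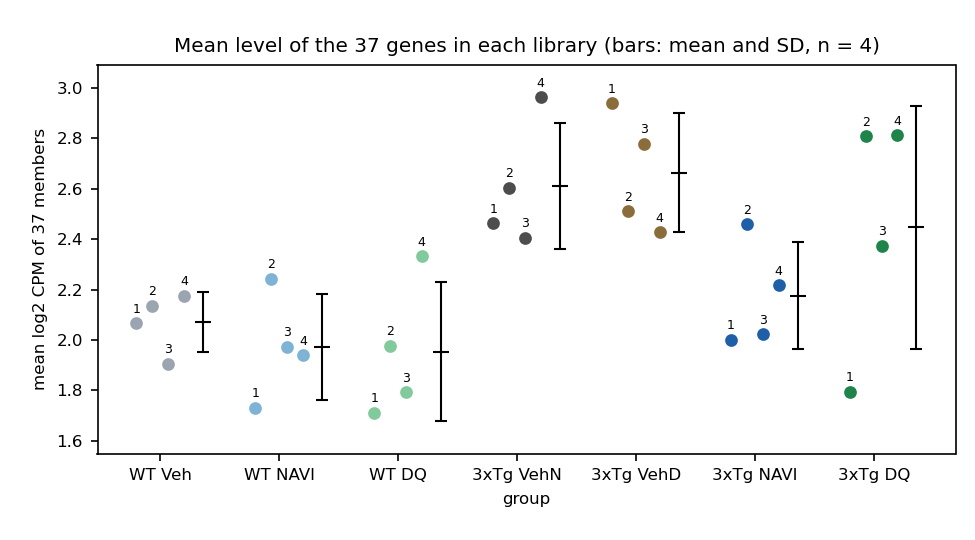
Mean log2 CPM over the 37 members in each library (points, numbered by replicate) by group, with the group mean and SD beside them; the axis does not start at 0. VehN and VehD libraries lie between 2.41 and 2.96, WT vehicle libraries between 1.91 and 2.18, and 3xTg DQ spreads from 1.795 to 2.81.

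The rest of the pathway was read from lists chosen with earlier results of these data known. Over all treatments 7.37% of all genes rose and 7.06% fell, the shares against which the counts of each list stand. None of the 17 interferon genes in the table reached the filter: 11 had 0 counts in all libraries, Ifnb1 had 2 counts over all 28 libraries and Ifng 9. Their RNA was not detectable above the filter at this depth. Of 6 receptor subunits, 1 rose over all treatments, Ifnar2 by 0.14 (edgeR adjusted p = 0.0358). Of 11 receptor kinases and transcription factors outside the members, 4 rose, among them Stat3 (0.38), Irf8 (0.64) and Irf5 (0.41), with edgeR adjusted p of 9.33e-06, 3.25e-05 and 0.00775.

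Of 13 nucleic acid sensors and adaptors, 5 rose over all treatments and none fell. The DNA sensor cGAS (Mb21d1) was at 1.47 ± 0.31 CPM in WT and 2.26 ± 0.31 in 3xTg (SD, n = 12 and 16), a log2 difference of 0.58 (edgeR adjusted p = 2.46e-04). The kinase Ikbke (0.70), the endosomal RNA receptors Tlr7 (0.56) and Tlr3 (0.22) and the DNA sensor Aim2 (0.31) were the others. Of 13 negative regulators 2 rose, the phosphatase Ptpn6 (0.39) and the RNA editor Adar (0.12). Of 79 tested interferon-stimulated genes outside the 37, 29 rose and 5 fell (all genes 7.37% and 7.06%), with a median of 0.31. The 6 with the smallest p were Parp12 (0.38), Trim34a (1.21), Nmi (0.39), Ifi44l (-4.79), Irgm1 (0.52) and Ifi204 (0.97). Ifi44l, the paralog of the member Ifi44, averaged under 10 counts, at 0 to 0.793 CPM in WT and 0 to 0.0689 in 3xTg.

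Markers of microglia moved with genotype as well. Of 11 microglia markers 5 rose over all treatments (median 0.13), with a summed level of 422 to 533 CPM in 12 WT libraries and 533 to 695 in 16 3xTg libraries, and of 10 plaque-associated markers 9 rose (median 0.85). No marker of either list averaged under 10 counts. With the microglia score as a covariate 12 of the 37 members rose over all treatments, with a median of 0.60, among 721 genes called in either direction in place of 2362. Herc6, Ddx58, Ifih1, Oas1a, Gbp2, Gbp3, Rsad2, Ifi27 and Lgals3bp no longer passed. With vehicle 10 members rose under that covariate, with a median of 0.64, among 803 genes called in place of 2142. Of 8 endothelial markers 3 fell over all treatments (Cldn5, Ly6c1 and Tek), and of 8 astrocyte markers 5 rose. The T cell markers Cd8a and Cd3g rose, but 5 of 6 T cell markers in the table averaged under 10 counts, and their summed level of 0.554 to 3.67 CPM in 3xTg overlapped with 0.405 to 3.03 in WT. The microglia score itself followed genotype, at -0.28 to 0.002 in WT and -0.04 to 0.31 in 3xTg. A fit with that score as a covariate therefore cannot tell genotype and microglia apart. The part of these cell types in the members' differences was not tested.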

How the data were processed

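RNA of 28 hippocampus libraries (7 groups of 4) was sequenced as paired reads of 100 bases. The authors deposited raw counts per gene. STAR, Subread with featureCounts and mm10 are named per the submitters' processing notes, which give no version or strand setting. Libraries were grouped by title and genotype labels.

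In R 4.3.3, genes were filtered by edgeR 4.0.16 (filterByExpr by group, which removed 7693 genes) and scaled by TMM. All 28 libraries entered 1 quasi-likelihood fit, from which 11 comparisons were taken. P-values were adjusted over 16369 genes by Benjamini-Hochberg, and an adjusted p under 0.05 was called. The standard error is the log2 difference divided by the root of F. CPM values use TMM library sizes, and log2 CPM a prior count of 2. The genotype comparison with vehicle sets the mean of VehN and VehD against WT Veh. In 3xTg the reference was VehN for NAVI and VehD for DQ, which reads the last letter as the drug. The fit was tested on simulated data. The least difference between replicates was a chi-square of 12.26 per degree of freedom, above sampling noise for every pair.

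Some items are not reported here. The members and lists were chosen with earlier results of these data known. Values in full are given for members called in a genotype comparison, and the 4 members with the smallest p for each drug comparison. Cell type scores are mean log2 CPM of the markers, centred on all libraries. Alternatives used DESeq2 1.42.0, limma 3.58.1 (voom) and sva 3.50.0, other filters and scaling, covariates, and leaving out each library. Libraries of the same number did not deviate together (correlations of -0.4 to 0.463, median 0.0239, over 0.1 in 32 of 84 pairs), so the numbers were not taken as pairs. Depth of 32080861 to 54019519 counts limits low members such as Oas3 (mean 5.9 counts).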

Additional observations from a re-analysis of the deposited data

Results flagged for a closer look

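In 14 of 168 groups of 4 libraries tested (24 items), 1 library stood apart from the other 3, with a gap beyond Dixon's critical value at 95%. Chance alone gives about 5% of such groups.

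VehN replicate 4 was high for Isg15 (4.951 CPM, others 2.353 to 2.723), Usp18 (9.35, others 4.418 to 5.219) and Gbp3 (13.32, others 8.713 to 9.478). 3xTg NAVI replicate 2 was high for Ifih1 (8.377 CPM, others 5.843 to 6.083) and Mx1 (0.8399, others 0.5199 to 0.5724). WT NAVI replicate 2 was high for Usp18 (2.675 CPM, others 1.593 to 1.629) and Lgals3bp (36.32, others 12.22 to 14.73). 3xTg DQ replicate 1 was low for Ifit2 (14.64 CPM, others 18.23 to 18.96), and WT DQ replicate 2 was high for the same gene (19.13, others 15.15 to 15.4).

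Among WT vehicle libraries, replicate 1 was high for Ifih1 (7.884 CPM, others 5.618 to 5.961) and replicate 2 for Eif2ak2 (18.35, others 13.9 to 14.61). Replicate 3 was low for Stat2 (27.89 CPM, others 34.95 to 36.29) and Oas1a (0.3276, others 0.724 to 0.7423), and replicate 4 for Rsad2 (2.027, others 2.568 to 2.668).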

How the results depend on the processing

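No called member changed sign under the 16 alternatives or with any of the 28 libraries left out. Members that were not called did: positive estimates for DQ in 3xTg ranged from 0 to 17 of 37 (2 as reported), for NAVI in WT from 10 to 20 (15) and for genotype with vehicle from 31 to 36 (35). No median moved by more than 0.27, the SD within groups of the members' mean log2 CPM. That limit is larger than the medians of DQ in 3xTg (-0.16), of each drug in WT (-0.09) and of VehD against VehN (0.06). It is also larger than that of the DQ effect between genotypes (-0.10), so it cannot judge whether these are stable. The DQ median in 3xTg ran from -0.27 to -0.03 when single libraries were left out. Medians near 0 turned sign, from -0.15 to 0.02 for NAVI in WT, -0.18 to 0.07 for the DQ effect between genotypes and -0.03 to 0.17 for VehD against VehN. Members higher in 3xTg than in WT under NAVI (1) became 3 with choroid plexus and thalamus scores as covariates and 2 with 1 surrogate variable. They became 0 with the microglia score or with the GC trend removed. Members higher in 3xTg than in WT under DQ (7) became 2 with only the libraries of that comparison and 4 with the choroid plexus and thalamus scores. They became 2 with the microglia score and 0 without the high-thalamus libraries. For genotype over all treatments 21 higher became 12 with the microglia score. Members lower with NAVI in 3xTg (0) became 2 with DESeq2 and 1 against both vehicles together. The NAVI effect between genotypes (0 lower) became 1 with DESeq2, 1 with voom and 2 without the high-thalamus libraries. With single libraries left out, members higher in 3xTg than in WT ranged from 10 to 15 under vehicle and 0 to 1 under NAVI. Under DQ they ranged from 1 to 8, and over all treatments from 18 to 23. Members lower ranged from 0 to 7 for NAVI in 3xTg and from 0 to 3 for its difference between genotypes. The replicate block, which rests on shared numbers only, gave 15, 1, 7 and 22 members higher in these 4 genotype comparisons, and 1 lower (Ifit2) for the difference in the NAVI effect. 9 of 28 libraries correlated best with their own number. The thalamus and GC alternatives were chosen after seeing the data. Over all genes, calls with vehicle ranged from 623 (VehD alone) to 5033 (without the high-thalamus libraries), with 2142 in the fit reported, and calls for NAVI in 3xTg from 0 to 3578. Beyond those counts, the cause of each change was not tested.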
